A study of Bos taurus with 57 samples.

Results

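ENSBTAG00000031778 and ENSBTAG00000012969 are 2 of the 24616 Ensembl genes counted in each of 57 RNA libraries from Holstein Friesian bull calves, taken from the testes, the anterior pituitary and the arcuate nucleus. The pair was chosen from these measurements: both genes were about 3-fold lower on the low than on the high plane of nutrition in the testes and nearly flat in the other tissues. The difference between the diets in each tissue is therefore given as a description, with an error and no test. Levels between tissues, averaged over the diets, and the relation between the genes within a diet were not the measure used in the choice and were tested. The low plane testes libraries behind the choice do enter the averaged testes levels.

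The calves, all males, were kept from a few weeks of age on 1 of 2 planes of nutrition, high or low, until slaughter at 126 days. The sample labels give growth of 1.08 kg per day on the high plane and 0.5 kg per day on the low plane, while the text of the series gives a target of 1.2 kg per day for the high plane. That text also names 19 calves beside 10 per diet, and these conflicts were not resolved. The testes gave 10 high plane and 8 low plane libraries, the anterior pituitary 9 and 10, and the arcuate nucleus 10 and 10. The diets differed in milk replacer and concentrate together. The labels do not tie a library to a calf. Among the high plane testes libraries A48 has a B48 in its own header, and it was kept in the testes as labelled.

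The 3 tissues form the hypothalamic-pituitary-testicular axis. Neurons of the arcuate nucleus sense metabolic state and act on the release of gonadotropin releasing hormone, the anterior pituitary answers with LH and FSH, and these act on the Leydig and Sertoli cells of the testes. The bull calf testis before puberty holds dividing Sertoli cells, steroid producing Leydig cells and early germ cells. Of the 24616 identifiers in the data, 0 were paired with a symbol in the gene table used here, so the names, functions, sequences and genome positions of both genes were not analysed here. The tissues could not be checked against their defining markers for the same reason.

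Levels are given as CPM, which scales the reads of a gene to the size of the library after TMM, a factor that keeps most genes level. The libraries held between 898979 and 32009433 counted reads. In the testes the low plane libraries were shallower on average (two-sided exact permutation p = 0.0333), with overlapping ranges. They held 8586953 to 22903487 reads (median 14180871), against 14963221 to 26067610 reads on the high plane (median 18655866). In the anterior pituitary (p = 0.366, exact permutation test) and arcuate nucleus (p = 0.45, permutation test) no difference passed 0.05. Across the tissues 13 libraries, 6 of them from the testes, stood apart on a library score. The score averages the log2 CPM of 200 genes that follow the main axis of spread in the other tissues. It lay at or below 1.58 in these 13 libraries and at or above 3.41 in the remaining libraries. The low score testes libraries were B42 on the high plane and B2, B15, B20, B21 and B26 on the low plane.

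In the testes, both genes were lower in every low plane library than in any high plane library. ENSBTAG00000031778 had 57 to 133 reads per library on the high plane and 12 to 52 on the low plane. On the high plane its level ran from 3.35 CPM in B42 to 9.06 CPM in B5 with a median of 5.27 CPM. On the low plane it ran from 1.21 to 2.92 CPM with a median of 1.38 CPM, and only B21 and B31 exceeded 2 CPM. The group means were 5.30 ± 1.84 CPM (SD, n = 10) and 1.71 ± 0.655 CPM (SD, n = 8). The fitted log2 fold change, low against high plane, was -1.62 (standard error 0.252), or 3.08-fold lower with a 95% interval of 2.18 to 4.34. In whole tissue, fewer cells of a type and less RNA per cell cannot be told apart.

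ENSBTAG00000012969 was counted more deeply in the same libraries, with 324 to 770 reads on the high plane and 33 to 249 on the low plane. High plane levels ran from 16.7 CPM in A48 to 45.3 CPM in B42 with a median of 25.8 CPM. Low plane levels ran from 3.59 CPM in B20 to 15.4 CPM in B15 with a median of 7.501 CPM. The groups did not overlap, although B15 lay close to the lowest high plane library. The means were 28.5 ± 9.82 CPM (SD, n = 10) and 8.64 ± 3.76 CPM (SD, n = 8). The log2 fold change was -1.72 (standard error 0.271), or 3.29-fold lower with a 95% interval of 2.28 to 4.76. Because gene lengths were not at hand, the CPM of one gene is not compared with that of the other.

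**Figure D1:**
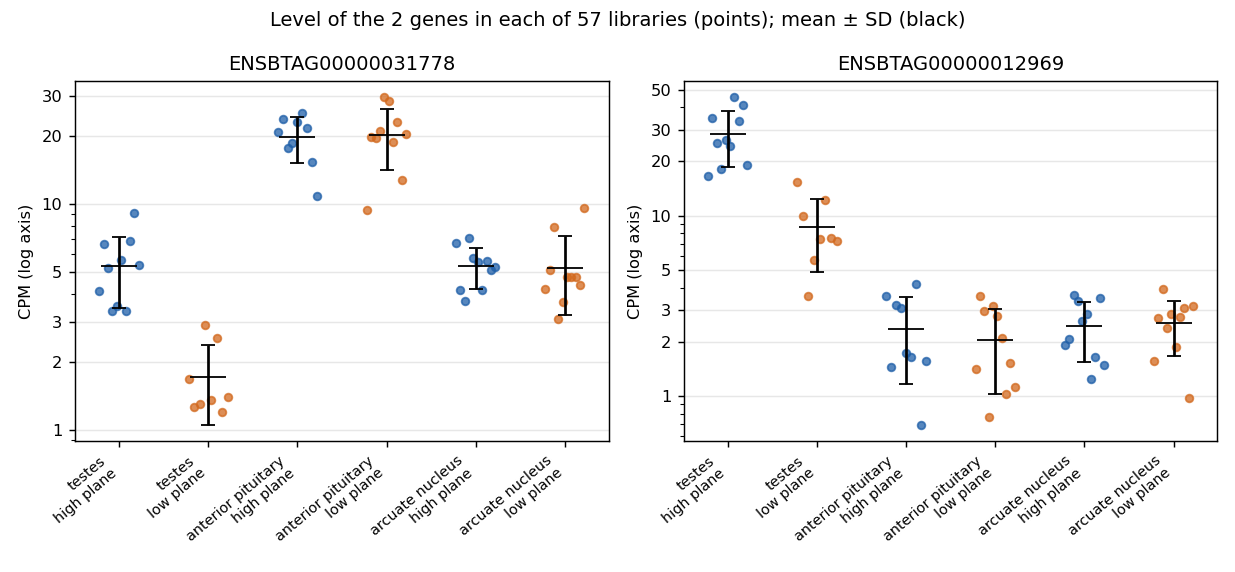
CPM (log axis) of ENSBTAG00000031778 (left) and ENSBTAG00000012969 (right) in the 57 libraries by tissue and diet. Each point is 1 library, and black bars give the mean ± SD. In the testes the low plane points of both genes lie below all high plane points. CPM is scaled within each tissue here, and the text compares tissues on a scale common to all libraries. On that scale ENSBTAG00000031778 is highest in the anterior pituitary and ENSBTAG00000012969 is highest in the testes.

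Over all 15310 genes tested in the testes, edgeR's quasi-likelihood test called 1057 (6.90%) at an FDR below 0.05, and 330 (2.16%) were called lower on the low plane. The pair belongs to the latter by its choice. A complete separation with every low plane library below every high plane library was found for 18 genes (0.118%), the pair included. In size of decrease, 102 genes had a lower log2 fold change than ENSBTAG00000031778 and 77 a lower one than ENSBTAG00000012969. The median log2 fold change over all genes tested in the testes was -0.01. Among the 13467 genes tested in all 3 tissues, 46 were called in the testes with a log2 fold change below -1.5. Of these, 8 had a change smaller than 0.25 in either direction in both other tissues, and the pair makes up 2 of the 8, which its choice fixes. So small a change in both other tissues was found in 33.9% of all 13467 genes, and in 15.7% of the 121 genes below -1.5 in the testes, called or not. These limits were set after the values were seen.

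**Figure D2:**
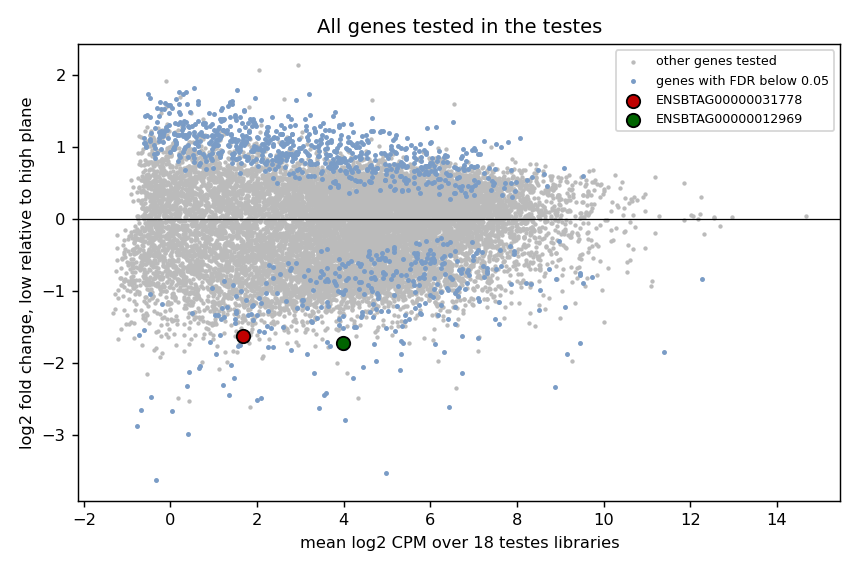
Log2 fold change in the testes, low relative to high plane, against mean log2 CPM over the 18 libraries for all 15310 genes tested. Blue points have an FDR below 0.05, grey points do not, and the 2 large points mark the pair at -1.62 and -1.72, near the lower edge of the cloud.

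The library score moved with diet in the testes, where 5 of 8 low plane and 1 of 10 high plane libraries scored low, and the pair was therefore read on both sides of it. Among the 12 testes libraries of high score, ENSBTAG00000031778 ran from 3.37 to 9.06 CPM in the 9 high plane libraries and from 1.21 to 2.56 CPM in the 3 low plane libraries. ENSBTAG00000012969 ran from 16.7 to 40.99 CPM and from 7.23 to 12.2 CPM in the same libraries. Neither gene overlapped between the diets there, as was so for 420 of the 15310 genes (2.74%) with these few low plane libraries. Without the low score libraries the log2 fold changes were -1.66 (standard error 0.335) and -1.56 (standard error 0.286). In that fit of 12 libraries edgeR called 0 genes at an FDR below 0.05 and 2546 had an unadjusted p below 0.05. Among the 6 libraries of low score, B42 was the single high plane library. It had 3.35 CPM of ENSBTAG00000031778, against 1.26 to 2.92 CPM in the 5 low plane libraries, and 45.3 CPM of ENSBTAG00000012969, against 3.59 to 15.4 CPM. B42 thus held the lowest high plane level of one gene and the highest of the other.

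With the score as a covariate the log2 fold changes were -1.55 (standard error 0.288) and -1.85 (standard error 0.267). With the log2 total count as a covariate they were -1.65 (standard error 0.294) and -1.75 (standard error 0.324). Of the 15310 genes tested in the testes, edgeR called 1057 (6.90%) without a covariate. It called 951 with the score and 2 with the log2 total count as covariate. Both genes of the pair were among the 951, and neither was among the 2. The diet contrast in the testes chose the pair, so whether its genes are called is no test of it. How far depth or the library score takes part in the difference was not tested beyond these values.

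**Figure D3:**
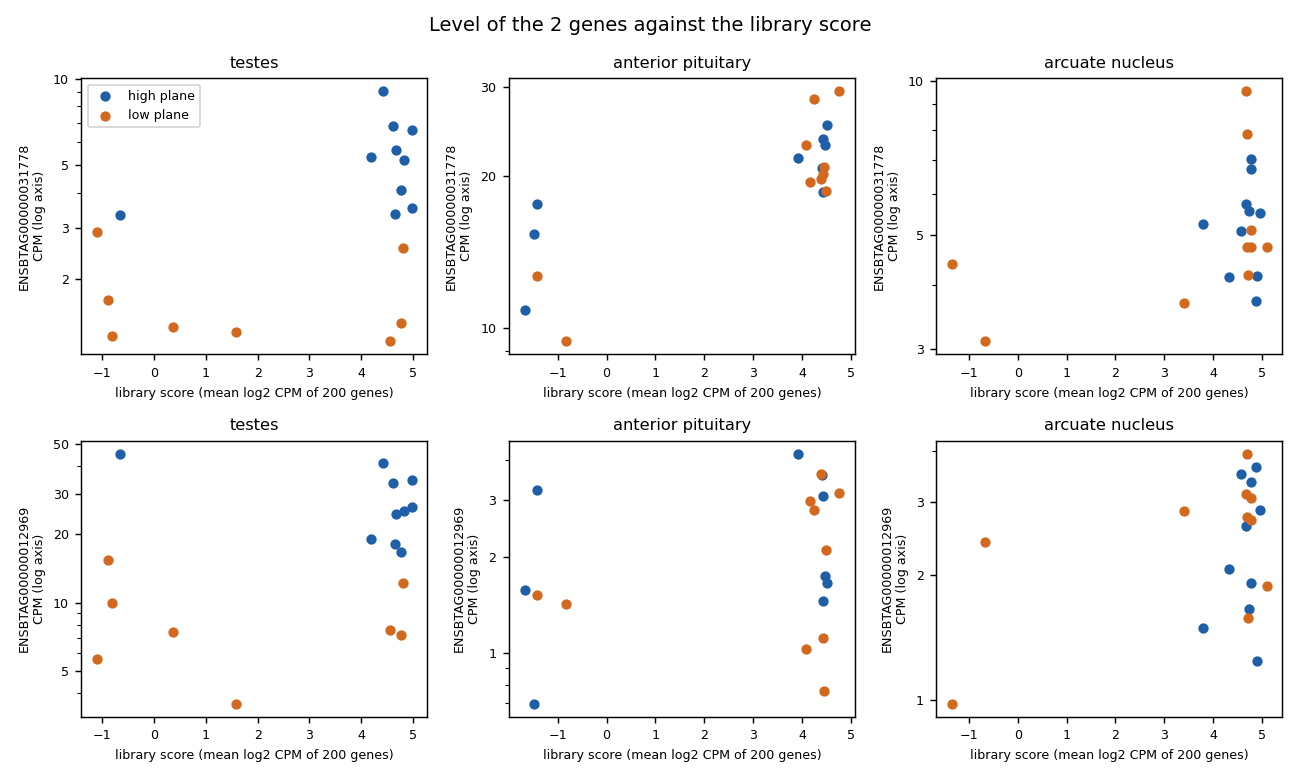
CPM (log axis) of ENSBTAG00000031778 (top) and ENSBTAG00000012969 (bottom) against the library score (a mean log2 CPM over 200 genes) in the testes, anterior pituitary and arcuate nucleus. Each point is 1 library, blue for the high and orange for the low plane. Among the high scores in the testes 9 high plane libraries lie above 3 low plane libraries, and among the low scores the high plane has the single library B42. In the anterior pituitary the 5 libraries of low score hold the lowest levels of ENSBTAG00000031778, and the share of genes with such a split was not computed.

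In the anterior pituitary, the levels of both genes overlapped between the diets. ENSBTAG00000031778 was well counted there, with 69 to 747 reads per library. Its level ran from 10.9 to 25.3 CPM on the high plane (median 20.8 CPM) and from 9.40 to 29.5 CPM on the low plane (median 19.97 CPM). The log2 fold change was 0.04 (standard error 0.197, 95% interval -0.35 to 0.42). The 5 libraries of low score, A18, A51 and A57 on the high plane and A10 and A47 on the low plane, had 9.40 to 17.6 CPM. The other 14 libraries had 18.6 to 29.5 CPM, so libraries of low score from both diets held the lowest values. This split was noticed in the data and was not tested. The share of all genes that split in the same way was not computed, so it may not be particular to this gene. With the score as a covariate the log2 fold change was -0.10 with a standard error of 0.115.

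ENSBTAG00000012969 was scarce in the anterior pituitary, with 10 to 80 reads per library. Levels ran from 0.696 to 4.18 CPM on the high plane (median 1.74 CPM) and from 0.763 to 3.61 CPM on the low plane (median 1.81 CPM). The log2 fold change of -0.20 had a standard error of 0.344 and a 95% interval from -0.87 to 0.47. The interval reaches as far as a level 1.83-fold lower on the low plane. Of the 14411 genes tested in this tissue 81 (0.562%) were called and 71 (0.493%) were called lower on the low plane. In 23 genes (0.16%) every low plane library lay below every high plane library.

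In the arcuate nucleus the diets also overlapped for both genes. ENSBTAG00000031778 ran from 3.73 to 7.05 CPM on the high plane (median 5.39 CPM) and from 3.10 to 9.55 CPM on the low plane (median 4.74 CPM). Its log2 fold change was -0.04, with a 95% interval of -0.42 to 0.35. ENSBTAG00000012969 ran from 1.24 to 3.66 CPM (median 2.35 CPM) and from 0.976 to 3.93 CPM (median 2.74 CPM). Its log2 fold change was 0.04, with a 95% interval of -0.44 to 0.53. The shallowest library, C22 on the high plane, held 4 reads of the former and 2 of the latter. In this tissue edgeR called 0 of 14757 genes at an FDR below 0.05, while 1464 had an unadjusted p below 0.05 and DESeq2 called 1.

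**Figure D4:**
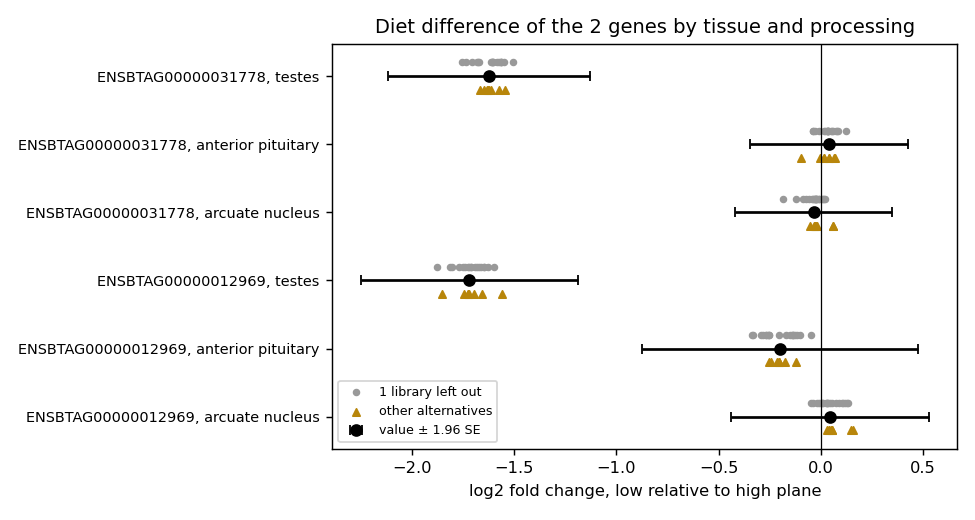
Log2 fold change of each gene, low relative to high plane, in each tissue. Black points with bars are the fitted value with its 95% interval, grey points are fits with 1 library left out and triangles are the other alternatives. Testes values lie between -1.87 and -1.51 in all fits shown, and those of the other tissues between -0.34 and 0.16.

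The tissues differed in the level of each gene, and they ranked differently for the 2 genes. The comparison was made in 1 edgeR fit over all 57 libraries and 16476 genes, with the 2 diets of a tissue weighted equally. Tissues differ in many genes, and the test called 66.4% of genes between testes and anterior pituitary, 74.9% between testes and arcuate nucleus and 68.1% between anterior pituitary and arcuate nucleus. The libraries of a calf could not be matched across tissues, so they were treated as independent.

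ENSBTAG00000031778 was highest in the anterior pituitary. On the scale common to all libraries it ran from 10.9 to 34.5 CPM there (median 22.8 CPM, n = 19), from 3.20 to 8.88 CPM in the arcuate nucleus (median 4.78 CPM, n = 20) and from 1.11 to 8.28 CPM in the testes (median 3.01 CPM, n = 18). The lowest pituitary library exceeded the highest library of either other tissue, as was so for 250 of 16476 genes (1.52%). In 198 genes (1.2%) the libraries of all 3 tissues lay apart from each other, and neither gene of the pair was among them. The testes lay 8.19-fold below the anterior pituitary (log2 difference -3.03, standard error 0.158, FDR 3.63e-24 by edgeR). The low plane lowering that chose the pair widens this mean over the diets. As a description, the high plane means were 22.52 CPM in the anterior pituitary and 4.836 CPM in the testes. On the low plane they were 22.78 and 1.572 CPM. The anterior pituitary lay 4.48-fold above the arcuate nucleus (log2 difference 2.16, standard error 0.145, FDR 1.52e-19 by edgeR).

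For the same gene the testes lay 1.83-fold below the arcuate nucleus over both diets (log2 difference -0.87, standard error 0.147, FDR 5.64e-07 by edgeR). Within a diet the value holds the difference that chose the pair and is given as a description. It was -0.18 (standard error 0.174) in the high plane libraries alone and -1.69 (standard error 0.251) in the low plane libraries alone. The mean over the diets thus rests on the low plane testes libraries, whose lowering chose the pair. Its FDR is therefore no separate test of a tissue difference.

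ENSBTAG00000012969 was highest in the testes, where it ran from 3.07 to 40.2 CPM on the common scale (median 15.7 CPM, n = 18). It ran from 0.843 to 4.64 CPM in the anterior pituitary (median 2.04 CPM, n = 19) and from 1.05 to 3.65 CPM in the arcuate nucleus (median 2.59 CPM, n = 20). The testes were 5.74-fold above the anterior pituitary (log2 difference 2.52, standard error 0.212, FDR 8.24e-16 by edgeR) and 6.01-fold above the arcuate nucleus (log2 difference 2.59, standard error 0.208, FDR 1.22e-16 by edgeR). In the low plane libraries alone, as a description, these log2 differences were 1.81 (standard error 0.309) and 1.67 (standard error 0.308). No difference between anterior pituitary and arcuate nucleus passed the threshold (log2 difference 0.07, 95% interval -0.33 to 0.46, FDR 0.791 by edgeR). Library A48, with 16.7 CPM within the testes scaling, lay above every library of the other tissues for this gene.

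The spread of the 2 genes between libraries of 1 diet holds the counting of reads as well as the differences between samples. The values from counting given here are taken at the mean read count of a group and are too low where depth varies. In the testes the coefficient of variation of ENSBTAG00000012969 was 0.345 on the high and 0.435 on the low plane, against 0.044 and 0.0886 from counting. For ENSBTAG00000031778 it was 0.347 and 0.383, against 0.102 and 0.198 from counting. The biological coefficient of variation that edgeR estimated in the testes was 0.355 for ENSBTAG00000031778 and 0.393 for ENSBTAG00000012969. Both lay below the 0.566 and 0.499 of genes of like abundance. The same held in the anterior pituitary (0.323 against 0.541 and 0.505 against 0.615). It also held in the arcuate nucleus (0.3 against 0.483 and 0.352 against 0.516). The share of all genes lying below was not computed. A choice by a clear diet difference in the testes can favour a small spread in that tissue. By the observed coefficient of variation, the anterior pituitary gave the widest spread for ENSBTAG00000012969. It was 0.501 on the high and 0.496 on the low plane there, against 0.17 and 0.166 from counting.

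Within a diet, the libraries did not show a relation between the 2 genes that passed a test. Pearson's r of their log2 CPM was 0.386 on the high plane of the testes (n = 10, permutation p = 0.263) and 0.162 on the low plane (n = 8, exact permutation p = 0.697). Spearman's rho was 0.261 (n = 10, permutation p = 0.467) and 0.0476 (n = 8, exact permutation p = 0.935). Over the 6 groups of tissue and diet r ran from 0.0886 to 0.442, and the Benjamini-Hochberg adjusted permutation p-values from 0.758 to 0.805. Those of rho ran from 0.675 to 0.935.

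Single libraries carried much of these values. On the high plane of the testes r was 0.79 without B42 (adjusted permutation p = 0.0754), and it was 0.674 without B42 and B5, the 2 libraries farthest from the median of ENSBTAG00000031778 (n = 8, exact permutation p = 0.0727). On the low plane r was 0.55 without B21 (adjusted exact permutation p = 0.527), and it was 0.575 without B21 and B31 (n = 6, exact permutation p = 0.242). On the high plane of the anterior pituitary r of 0.256 became -0.695 without A51 and A57 (n = 7, exact permutation p = 0.0988). In the low plane arcuate nucleus r of 0.442 became -0.000679 without C8 and C28 (n = 8, exact permutation p = 0.999).

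**Figure D5:**
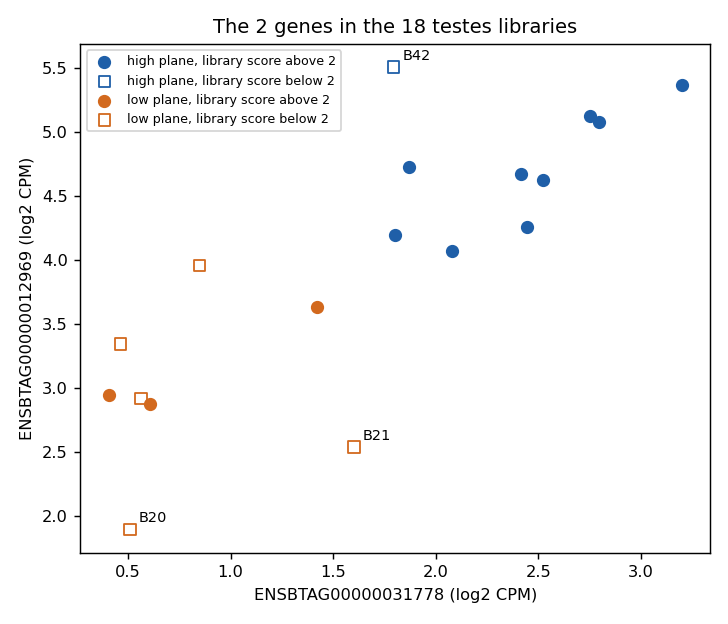
Log2 CPM of ENSBTAG00000012969 against that of ENSBTAG00000031778 in the 18 testes libraries. Blue marks the high and orange the low plane, filled points have a library score above 2 and open squares a score below 2. The diets lie apart on both axes, and B42 has the highest level of one gene at the lowest high plane level of the other.

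Other genes followed each member more closely than the other member did. After each diet's mean was subtracted, the 15310 genes tested were ranked by r with a member over the 18 testes libraries, as a description. The first ranks are the largest of very many values, and how high r runs by chance alone was not tested. The closest gene to ENSBTAG00000031778 was ENSBTAG00000000731 (r = 0.757), and the first 5 had r from 0.684 to 0.757. ENSBTAG00000012969 came at rank 932 with r = 0.273. The closest gene to ENSBTAG00000012969 was ENSBTAG00000021287 (r = 0.782), the first 5 had r from 0.758 to 0.782, and ENSBTAG00000031778 came at rank 2187.

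The genes closest within a diet differed widely in their own difference between diets. For ENSBTAG00000000731 the log2 fold change in the testes was -0.21 (standard error 0.229), and for ENSBTAG00000021287 it was -0.82 (standard error 0.312). The 5 genes nearest to ENSBTAG00000012969 had log2 fold changes from -0.82 to -0.18, and those nearest to ENSBTAG00000031778 from -2.45 to 0.19, with 1 of the 5 below -1.5. Over all 57 libraries the 5 genes closest to the mean of the pair had r from 0.751 to 0.782 and log2 fold changes in the testes from -1.22 to -0.50. These libraries share tissues and diets, so such values describe the pattern of levels and carry no test.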

How the data were processed

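RNA of the 3 tissues was sequenced as single-end TruSeq mRNA libraries. The deposited values are raw read counts per Ensembl gene, whole numbers without normalization. The submitters' processing notes name CASAVA 1.4, STAR, HTSeq and edgeR without roles, and the genome build and annotation release are not given in the sources used here. Samples were grouped by the tissue and diet in their labels. Between 2 libraries of a group, chi-square per degree of freedom was at least 2.72, so each was kept as a separate sample.

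The counts were fitted with edgeR 4.0.16 under R 4.3.3 (default filter, TMM, quasi-likelihood test, Benjamini-Hochberg FDR, threshold 0.05) within each tissue, and in 1 fit over 6 groups for tissue differences. Standard errors come from the log2 fold change and the F statistic, and 95% intervals follow from them by the normal quantile. Correlations used log2 CPM with a prior count of 2, and permutations were exact where a group had under 10 libraries and otherwise drew 100000 resamples (Python 3.11.15, numpy 2.4.6). DESeq2 1.42.0, other scalings, no filter, covariates, single diets and leaving out each library were the alternatives. The library score takes 200 genes with the largest slopes on the first scaling dimension of the other tissues, and leaving out the libraries with a score below 2 was added after seeing the data. Genes named are the pair and its closest correlates by a set rule, which lists 5 per ranking, of which the first of each member is printed. The gene lists prepared for pathways and cell types were not scored, since no identifier was paired with a symbol. The pair, the lists and the tests were chosen with earlier results of these data known. Libraries are the unit of replication, and where 2 libraries are not stated to be of separate calves the p-values measure only the spread between libraries.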

Additional observations from a re-analysis of the deposited data

Results flagged for a closer look

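A single library lying far from its group was looked for in 30 sets of values, namely the CPM of each gene, the ratio of the 2 genes, the total count and the library score in each of the 6 groups. There were 2 outlying values, where chance alone would give about 1.5. The library score of the high plane testes library B42 was -0.651, and the nearest other high plane testes library had 4.197. The total count of the low plane arcuate nucleus library C41 was 27729419 reads, and the next highest in its group was 16556829. The CPM of ENSBTAG00000031778 and of ENSBTAG00000012969 gave no outlying library in any of the 6 groups, B42 included.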

How the results depend on the processing

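Over all alternatives other than leaving out 1 library, the log2 fold changes of the pair moved by less than the SD between libraries in 48 of 48 cases. That limit is wide, since in the testes the SD of log2 CPM was 0.468 and 0.565, against standard errors of 0.252 and 0.271. Refits of the same or mostly the same libraries could hardly move so far. In the testes the log2 fold changes lay between -1.66 and -1.55 for ENSBTAG00000031778 and between -1.85 and -1.56 for ENSBTAG00000012969. With 1 library left out they lay between -1.76 and -1.51 and between -1.87 and -1.60. The number of genes called was less stable. In the testes it was 1972 with DESeq2, 2336 with library totals, 609 without a filter, 2 with the log2 total count as covariate and 0 without the low score libraries, where 3 low plane libraries are left and 2546 genes had an unadjusted p below 0.05 with edgeR. Leaving out 1 testes library gave 158 (without B2) to 4600 (without B42), and 13 of these 18 fits moved the count by more than 1.5 times. In the anterior pituitary it was 258 with DESeq2, 50 with library totals, 1298 with the library score as covariate, 174 in 1 fit over all tissues and 833 without the low score libraries, and 48 to 88 with 1 library left out. In the arcuate nucleus DESeq2 called 1 gene and 1 fit over all tissues 123, while leaving out 1 library gave 0 in each of 20 fits.

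The difference of ENSBTAG00000031778 between testes and arcuate nucleus was -0.1771 in high plane libraries alone, no longer past the threshold. That of ENSBTAG00000012969 between anterior pituitary and arcuate nucleus, not past the threshold in any fit, was -0.001564 with RLE factors, -0.2102 with library totals, -0.02878 without a filter, -0.1448 in low plane libraries, -0.00577 with DESeq2 and -0.08027 to 0.1065 with 1 library left out. The correlation of the pair in the high plane anterior pituitary was -0.1082 after removal of the library score and -0.7227 without low score libraries. Leaving out 1 library gave r from -0.06191 to 0.5497 on the low plane of the testes and from -0.1551 to 0.4435 on the high plane of the arcuate nucleus. The difference in total count in the testes ran from -5941246 to -3896026 reads, and 5 of 18 such fits lost the 0.05 threshold. The causes of these shifts were not tested. Outside the testes 2 to 94 reads per library stand behind ENSBTAG00000012969. Counting at the mean read count of a group gives a coefficient of variation of 0.149 to 0.17 where 0.338 to 0.501 was observed. Libraries with fewer reads than the mean scatter more, so these values from counting are too low. No paired analysis was possible because the labels carry no number that ties libraries of different groups.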

Other observations

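The 2 genes can be read against each other within a library. The log2 ratio of ENSBTAG00000012969 to ENSBTAG00000031778, from log2 CPM with a prior count of 2 that pulls the ratio of low counts towards 0, ran from 0.94 to 3.71 in the testes, from -2.04 to -0.03 in the arcuate nucleus and from -4.57 to -2.34 in the anterior pituitary. Between any pair of tissues 66.4% to 74.9% of genes differed, and the share of gene pairs with such a ratio was not computed. Its absolute size also reflects the unknown lengths of the genes, whereas its differences between tissues do not. Within the testes the medians of the diets were 2.27 on the high and 2.31 on the low plane, a likeness that the choice of the pair fixes. The highest ratio was that of B42 at 3.71, and the lowest that of B21 at 0.94.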
